A study of Mus musculus with 6 samples.

Results

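Histone acetylation is written by acetyltransferases, removed by deacetylases and read by bromodomain proteins, and 34 mouse genes of these kinds were followed here in microglia, the resident macrophages of the brain. They were picked by name from the 17459 gene symbols of the count table: 9 acetyltransferase genes, 18 deacetylase genes, the corepressor gene Ncor1 and 6 bromodomain reader genes. RNA sequencing was done on 3 libraries of Mir137 conditional knockout microglia (cKO) and 3 libraries of control microglia (cWT). The cKO mice were Mir137 loxP/loxP and carried Tmem119-CreERT2, a tamoxifen-inducible Cre under the microglial gene Tmem119. The cWT mice were Mir137 +/+ with the same Cre. All were male C57BL/6J mice labelled as 8 weeks old, with tamoxifen injected on 7 days at 7 to 8 weeks of age. The design text names 4 mice for the isolation of microglia and does not tie mice to libraries, so p-values measure only the spread between these libraries, which may be technical.

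Acetyl groups on the lysines of histone tails loosen chromatin and mark active promoters and enhancers. Crebbp and Ep300 write them at enhancers, the Kat genes write them within larger complexes, and the deacetylases take them off, the Hdac enzymes with zinc and the sirtuins with NAD. Bromodomain proteins bind acetylated lysine and carry the mark on to transcription and remodelling. In mouse microglia and macrophages, Hdac1 and Hdac2 are known for a part in microglial development, and bromodomain readers for a part in inflammatory gene induction.

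Total estimated counts ran from 12068698 to 15212806 in cKO and from 16503817 to 17482042 in cWT. Mir137 is listed with a mean of 0 in the authors' deposited table, which gives no check of the deletion. All 10 microglial markers were measured, 4 higher and 5 lower, and their summed level was 40372 to 46729 CPM in cKO and 36886 to 39258 CPM in cWT. CPM here is a gene's counts scaled by library size and TMM factors. Of 5 measured neutrophil markers, 3 were higher and 1 was lower, none was at 0 in all libraries, and their sum was 9616 to 14105 CPM in cKO and 2764 to 3387 CPM in cWT. Most of that sum came from S100a8 and S100a9, with Mpo at 12.9 to 34.5 CPM in cKO and 40.2 to 68.6 CPM in cWT. Of 6 endothelial and pericyte markers 1 was higher and 5 were lower, and their sum was 640 to 874 CPM in cKO and 853 to 1029 CPM in cWT. In bulk RNA, fewer cells of a type and less RNA per cell cannot be told apart, and the part of these other cells in the results was not tested.

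The gene targeted in cKO encodes miR-137, and its 3p strand is shown because its seed, bases 2 to 8 in capitals, defines the sites searched for in the 34 genes. The RefSeq sequence lies at chr3:118433901-118433923 (GRCm38.p6, plus strand).
mmu-miR-137-3p: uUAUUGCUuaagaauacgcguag
A match to that seed, AGCAATA, was present in the longest annotated 3' UTR of 5 of the 34 genes (14.7%), against 10.7% of 13014 tested genes with a 3' UTR. The 5 sites are given with the match in capitals, from GENCODE transcripts on GRCm38.
Kat2b: tttttttttattttgAGCAATAg
Sirt1: tccattaatgaggaaAGCAATAg
Sirt4: atttctgatggcaggAGCAATAg
Sirt5: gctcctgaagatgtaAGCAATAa
Brd1: ttagaacactttggtAGCAATAg
They lie at chr17:53671064-53671086 (plus strand), chr10:63319745-63319767 (minus), chr5:115478071-115478093 (minus), chr13:43387040-43387062 (plus) and chr15:88687450-88687472 (minus), in that order. Only the Sirt5 site carries the further A that makes the longer, 8-base match. Of these 5 genes, Sirt5 was higher in cKO, Sirt4 was not called, and Kat2b, Sirt1 and Brd1 were lower. Over all tested genes with a 3' UTR the median log2 fold change, without offsets, was -0.52 with a match and 0.03 without one. For Sirt1 and Sirt5 the longest 3' UTR belongs to another transcript than the one whose length is used below. With the length and GC offsets introduced below Sirt4 was at -0.52 and Brd1 at -0.40, both called lower. Sirt5 (-0.26, SE 0.28), Kat2b (-0.03, SE 0.09) and Sirt1 (-0.07, SE 0.13) lay within 1 SE of 0 and were not called. With these offsets 41.2% of the 34 genes and 29.0% of all genes with a length were called lower.

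The same seed match was searched on both strands, as AGCAATA and TATTGCT, in the RefSeq promoter windows, which run from 250 bases before to 50 bases after a gene's start. It was found in 3 of the 29 genes that have a window (10.3%) and in 194 of 13058 genes of the count table (1.49%). The 3 genes are Brd7, Sirt7 and Hdac9. The match begins at -247 bases from the start in Brd7, at -238 and -183 in Sirt7, and at 29, after the start, in Hdac9. The stretches around the matches are printed in that order.
Brd7: taaTATTGCTaaagacaa
Sirt7: gcagtattTATTGCTaaattatt
Sirt7: cgggtattTATTGCTgtacatag
Hdac9: cttgttgcAGCAATAaggaaagt
These are chr8:88362405-88362422, chr11:120625238-120625260, chr11:120625183-120625205 and chr12:34917052-34917074 (GRCm38.p6, all read on the minus strand). Brd7 and Hdac9 were lower in cKO and Sirt7 was higher, and none of them was called with the length and GC offsets (-0.08, 0.02 and 0.09 in that order). A match of letters is not a site of binding.

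The comparison of cKO with cWT asks how the loss of miR-137 alters microglial transcripts. All 34 genes passed the filter on low counts and 30 were called at an adjusted p under 0.05, 11 higher and 19 lower in cKO. Over all 13490 tested genes 35.6% were called higher and 36.5% lower, and 72.1% in either direction, so a call in itself was common. Among the calls, 10 genes were lower and 2 higher by 2-fold or more, where the shares over all tested genes were 19.6% and 19.0%. The median log2 fold change was -0.44 over the 34 genes and -0.02 over all tested genes. The genotypes did not overlap for 30 of the 34 genes, and for 74.6% of all tested genes. With libraries scaled by total count alone, which moves the median of all tested genes to -0.42, the calls were 6 higher and 22 lower. Hdac10, Sirt6 and Brd9 were then called lower, at -0.47, -0.70 and -0.31, close to that median except for Sirt6. Of all 13490 tested genes, this scaling called 3331 higher and 6742 lower.

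Over all tested genes 36.5% were called lower and 35.6% higher. Of the writers 7 of 9 were called lower and 2 called higher. Their summed level was 308, 300 and 294 CPM in the cKO libraries and 638, 639 and 673 CPM in the cWT libraries. Readers were lower too, 5 of 6, with sums of 301, 311 and 336 CPM in cKO and 492, 507 and 524 CPM in cWT. Erasers were split, 9 of 18 higher and 6 lower, and their sum was 714, 693 and 791 CPM in cKO against 638, 651 and 672 CPM in cWT. With the same length and GC offsets, 6 writers were lower and 2 higher, 2 readers lower and 1 higher, and 5 erasers lower and 2 higher. Of all genes with a length, 29.0% were then called lower and 28.2% higher. The sums are not adjusted for transcript length. Ep300 and Kat6a, with transcripts of 9566 and 9113 bases, held 156 and 193 CPM of the writers' cWT mean of 650 CPM.

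**Figure D1:**
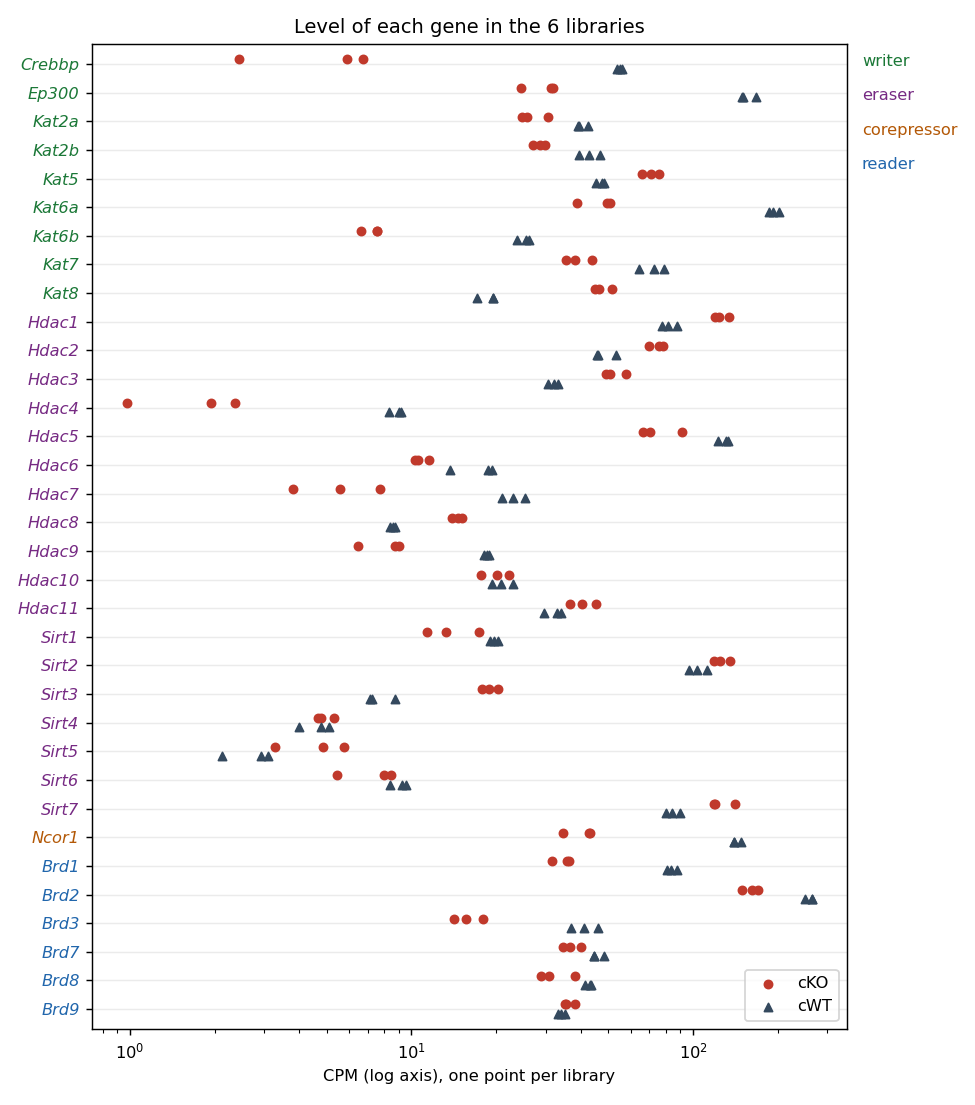
Level of each of the 34 genes in CPM on a log axis, with 1 point per library, cKO as red circles above cWT as dark triangles, and gene names coloured by role. The cKO points of Crebbp, Ep300, Kat6a and Ncor1 lie far to the left of their cWT points, and only Hdac10, Sirt4, Sirt6 and Brd9 overlap.

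Direction followed transcript length. Among the 19 genes whose annotated transcript is longer than 2995 bases, all 19 were called lower, and among the 15 shorter ones 11 were called higher, 4 were not called and 0 were lower. Over all tested genes with a length the same trend was present, with a Spearman correlation across genes of -0.72 (13396 genes), and it was -0.91 over the 34 genes. These are descriptions, since genes of the same libraries are not replicates. In the shortest of 10 equal groups of tested genes by length the median log2 fold change was 1.58, and in the longest, from 6440 bases up, it was -1.44. The share of tested genes called lower was 37.3% in group 6, which starts at 2996 bases, and 83.2% in the longest group. The share called higher was 86.6% in the shortest group and 30.7% in group 5, which ends at 2995 bases. In those 2 groups 2.7% and 23.8% were called lower. Within libraries the level of genes correlated with length at -0.138 to -0.162 in cKO and at 0.180 to 0.186 in cWT. The cause of this trend was not tested. Log2 fold changes below are therefore given also with per-library offsets for length and GC content, which left a correlation of -0.07 over all tested genes with a length and of -0.46 over the 34.

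**Figure D2:**
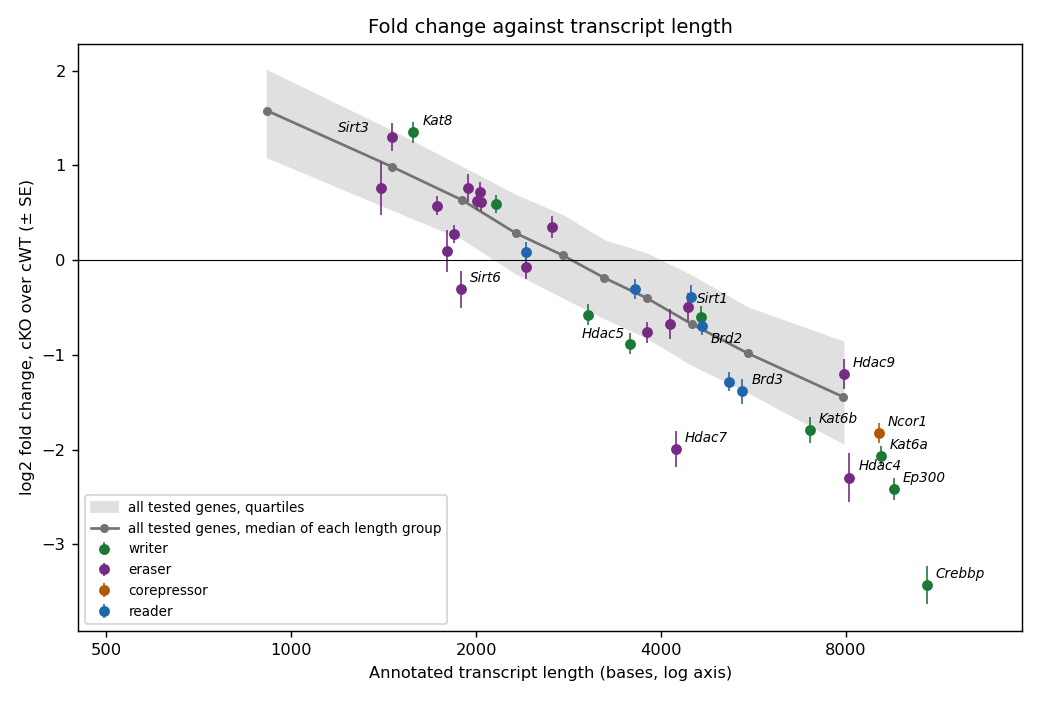
Log2 fold change (cKO over cWT, bars are SE) of the 34 genes against annotated transcript length on a log axis, coloured by role, with the median and quartiles of all tested genes in 10 length groups in grey. The genes above 2995 bases lie below 0, and Crebbp and Hdac7 lie farthest under the grey median, at -1.98 and -1.32 relative to it.

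With the offsets 19 of the 34 genes were called, 5 higher and 14 lower. Of 13396 genes with a length 57.2% were called with the offsets, 28.2% higher and 29.0% lower. The median of the 34 was then -0.10, against -0.02 over all genes with a length. Of the 19 genes called lower without offsets 11 stayed lower, 7 were not called and 1, Brd2, was called higher. Those 11 were Crebbp, Ep300, Kat2a, Kat6a, Kat6b, Kat7, Hdac4, Hdac7, Ncor1, Brd1 and Brd3. Of the 11 called higher, Kat5, Kat8, Hdac11 and Sirt3 stayed higher, 6 were not called and 1, Sirt2, was called lower. The share that stayed lower, 57.9%, was close to the 58.4% of all genes called lower, and the share that stayed higher was 36.4%, against 56.5% of all genes called higher.

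**Figure D3:**
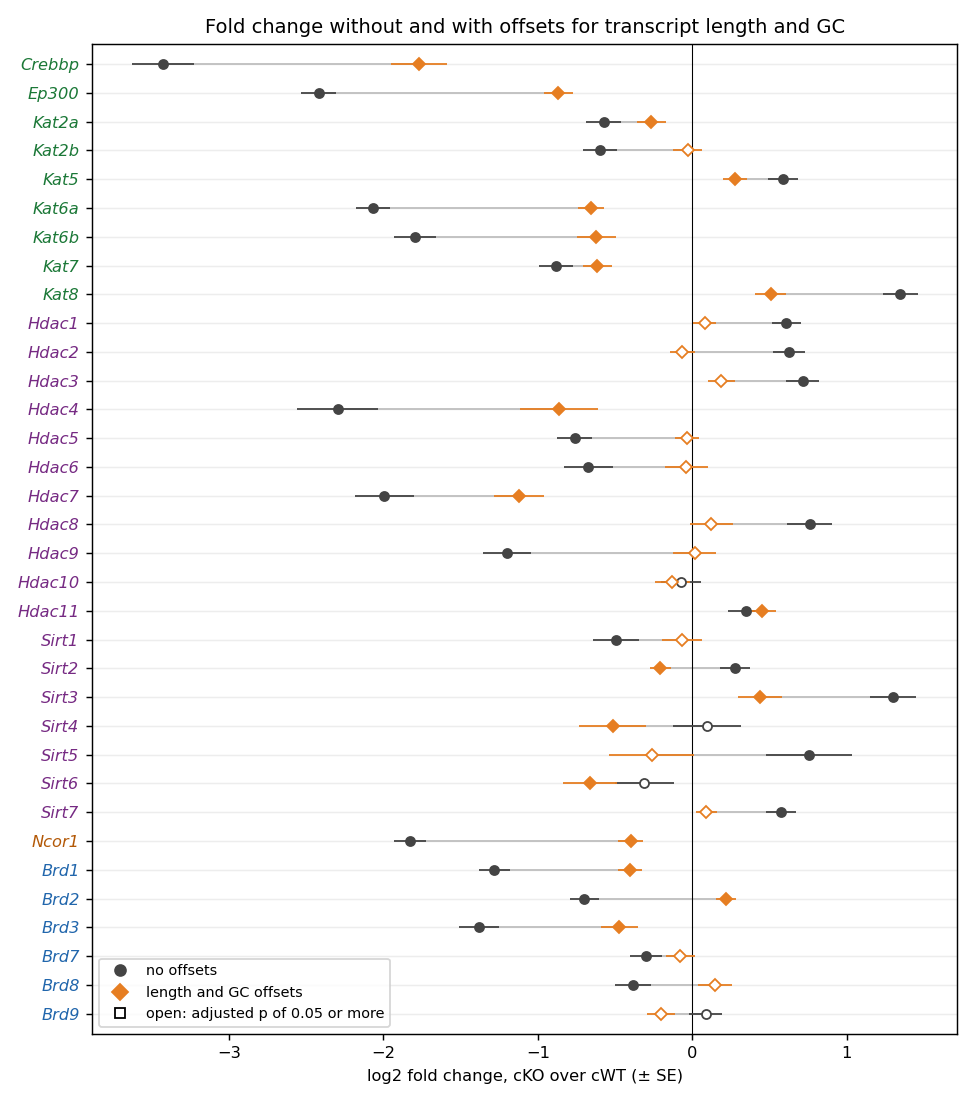
Log2 fold change of each gene (cKO over cWT, bars are SE) without offsets (dark circles) and under the length and GC offsets (orange diamonds), open where the adjusted p was 0.05 or more. Crebbp, Hdac7, Ep300 and Hdac4 stayed at -0.86 or below with the offsets, and Brd2 and Sirt2 changed sides.

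Crebbp and Ep300 encode CBP and p300, the paired acetyltransferases of enhancers. Crebbp (chromosome 16, 4081328 to 4213997, GRCm38) had 25, 76 and 78 counts in the cKO libraries and 1052, 1053 and 1090 counts in the cWT libraries, or 2.43, 6.73 and 5.92 CPM in cKO against 56.0, 53.9 and 55.1 CPM in cWT. Every cKO library was far under every cWT library, and cKO replicate 1 was the lowest. The log2 fold change was -3.43 (SE 0.20, edgeR adjusted p = 1.17e-10), 10.8-fold lower, and -1.77 with the offsets (adjusted p = 1.08e-06). It was the largest decrease among the 34 genes. Without cKO replicate 1 it was -3.13.

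Ep300 (chromosome 15, 81585351 to 81652077) had 31.3, 31.9 and 24.5 CPM in cKO and 149, 151 and 168 CPM in cWT. It fell by 2.42 (log2, SE 0.11, adjusted p = 7.23e-12), which is 5.34-fold, and the offsets gave -0.87 (adjusted p = 1.24e-07). The log2 ratio of the pair was 3.69, 2.24 and 2.05 in cKO and 1.41, 1.49 and 1.61 in cWT, without overlap. The difference of 1.16, which was 0.65 without cKO replicate 1, had an exact two-sided permutation p of 0.1, the smallest that 3 against 3 libraries allow, and 0.15 after Benjamini-Hochberg adjustment over the 9 pairs compared. Both transcripts belong to the longest group, at 10820 and 9566 bases, and with the offsets the difference was 0.90.

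The GNAT writers Kat2a and Kat2b, which encode GCN5 and PCAF of the SAGA and ATAC coactivator complexes, were both lower. Kat2a had 25.7, 24.7 and 30.6 CPM in cKO and 39.0, 42.4 and 39.3 CPM in cWT, 1.49-fold lower (log2 fold change -0.57, SE 0.12, adjusted p = 0.000228). Kat2b had 29.7, 28.6 and 27.0 CPM in cKO and 46.5, 39.4 and 42.8 CPM in cWT, at -0.60 (SE 0.11, adjusted p = 0.000105). Neither gene overlapped between genotypes, while their ratio did, with a log2 ratio of 0.08 ± 0.23 in cKO and 0.09 ± 0.18 in cWT (SD, n = 3 each). With the offsets Kat2a stood at -0.27 (adjusted p = 0.0202) and Kat2b at -0.03 (adjusted p = 0.805).

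The MYST writers went both ways. Kat6a, which encodes MOZ (chromosome 8, 22859535 to 22943259), had 50.7, 49.5 and 38.6 CPM in cKO and 193, 186 and 201 CPM in cWT. It fell by 2.07 (SE 0.11, adjusted p = 2.26e-11). Its relative Kat6b, or MORF, had 6.62, 7.53 and 7.52 CPM in cKO and 25.5, 26.1 and 23.8 CPM in cWT, and fell by 1.79. Their ratio overlapped between genotypes. Kat7, the HBO1 enzyme of histone H3 and H4, fell by 0.88, with 39.0 ± 4.25 CPM in cKO and 72.0 ± 7.11 CPM in cWT. With the offsets the 3 genes stayed lower, at -0.65, -0.62 and -0.61, each with an adjusted p of 0.000326 or less.

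Kat8 and Kat5 were the only writers that were higher. Kat8 encodes MOF, which acetylates lysine of histone H4 (chromosome 7, 127912516 to 127925837), and had 51.6, 44.8 and 46.2 CPM in cKO and 17.1, 19.5 and 19.4 CPM in cWT. Its change of 1.35 (log2, SE 0.11, adjusted p = 6.66e-09) was the largest increase among the 34 genes, and it was 0.51 with the offsets (adjusted p = 0.000204). Kat5, the TIP60 enzyme of the NuA4 complex, had 66.1, 70.8 and 75.5 CPM in cKO and 48.3, 47.6 and 45.2 CPM in cWT. It rose by 0.59 (SE 0.10, adjusted p = 2.59e-05), stood at 0.28 with the offsets (adjusted p = 0.00522), and was not called with libraries scaled by total count alone (0.20, adjusted p = 0.0829).

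The zinc-dependent deacetylases split by class. All 4 class I genes, which include the enzymes of the NuRD, Sin3, CoREST and NCoR complexes, were higher. Log2 fold changes were 0.61 for Hdac1, 0.63 for Hdac2, 0.72 for Hdac3 and 0.76 for Hdac8. With libraries scaled by total count alone they were smaller, at 0.22, 0.23, 0.32 and 0.37 in that order. All 4 were still called (edgeR adjusted p = 0.044, 0.042, 0.012 and 0.035). Hdac1 had 124, 119 and 134 CPM in cKO and 87.9, 77.4 and 81.8 CPM in cWT. Hdac2 had 78.4, 69.7 and 75.5 CPM in cKO and 53.1, 45.6 and 46.1 CPM in cWT. Both were higher in every cKO library than in any cWT library, and the log2 ratio of Hdac2 to Hdac1 was -0.75 ± 0.08 in cKO and -0.77 ± 0.05 in cWT.

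Hdac3, the catalytic partner of Ncor1, was at 52.5 ± 4.83 CPM in cKO and 32.0 ± 1.22 CPM in cWT. Hdac8, an X-linked enzyme that also acts on cohesin, had 13.9, 15.1 and 14.6 CPM in cKO and 8.41 to 8.75 CPM in cWT. It had the largest change of the class (SE 0.15, adjusted p = 0.000158), without overlap. The 4 transcripts have 1936 to 2038 bases, in a length group whose median gene stood at 0.63. With the offsets none of the 4 was called, at -0.06 for Hdac2, 0.08 for Hdac1, 0.12 for Hdac8 and 0.19 for Hdac3.

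All 4 class IIa genes were lower. These encode deacetylases with little enzyme activity of their own, which shuttle between nucleus and cytoplasm and bind MEF2 factors and the NCoR complex. Hdac4 (chromosome 1, 91928779 to 92195699) had 10, 22 and 31 counts in cKO and 173, 176 and 164 counts in cWT, or 0.974, 1.95 and 2.35 CPM in cKO against 9.20, 9.01 and 8.29 CPM in cWT. It fell by 2.29 (SE 0.26, adjusted p = 3.26e-07). Hdac7 (chromosome 15, 97792664 to 97844502) had 3.80, 5.58 and 7.74 CPM in cKO and 23.0, 25.4 and 21.0 CPM in cWT, and was 3.99-fold lower (log2 fold change -1.995, SE 0.19, adjusted p = 3.27e-08).

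Relative to the median of its length group Hdac7 was at -1.32. The offsets gave -1.12 for Hdac7 (adjusted p = 5.72e-06) and -0.86 for Hdac4 (adjusted p = 0.00672). Hdac5 was the most abundant of the class, at 70.2, 66.7 and 91.0 CPM in cKO and 123, 131 and 133 CPM in cWT, and fell by 0.76. Hdac9 had 8.76, 9.03 and 6.45 CPM in cKO and 18.6, 18.1 and 18.8 CPM in cWT, and fell by 1.20. Neither was called with the offsets, at -0.03 for Hdac5 and 0.02 for Hdac9. Hdac9 and Hdac4 have transcripts of 7940 and 8100 bases, and the log2 ratio of Hdac9 to Hdac4 was 3.17, 2.21 and 1.46 in cKO and 1.07 ± 0.10 in cWT (SD, n = 3), without overlap. The difference of 1.21 was 0.77 without cKO replicate 1 (exact permutation p = 0.1, adjusted 0.15).

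The other Hdac genes are those of classes IIb and IV. Hdac6, the cytoplasmic tubulin deacetylase, had 10.5, 10.3 and 11.5 CPM in cKO and 13.7, 19.2 and 18.7 CPM in cWT, and fell by 0.67 (SE 0.16, adjusted p = 0.000909), with -0.04 under the offsets. Hdac10, a polyamine deacetylase, had 20.1, 17.7 and 22.2 CPM in cKO and 20.9, 19.3 and 23.0 CPM in cWT. These values overlap, and the log2 fold change of -0.07 (SE 0.13) was not called (adjusted p = 0.638), nor was the -0.13 with the offsets. Hdac11, the lone class IV enzyme, known to remove fatty acyl groups and to act on Il10 in macrophages (chromosome 6, 91156665 to 91174692), had 40.5, 36.7 and 45.4 CPM in cKO and 29.5, 33.9 and 32.9 CPM in cWT. It was higher at 0.35 (SE 0.11, adjusted p = 0.0115), and with the offsets at 0.45 (adjusted p = 0.000284). The call without offsets was lost when cWT replicate 1 was left out (adjusted p = 0.0584), and with libraries scaled by total count alone the value was -0.05.

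Sirtuins, which couple deacylation to the use of NAD, were higher in 4 of 7 cases, with Sirt1 lower and Sirt4 and Sirt6 not called. With the offsets 1 was higher and 3 were lower, and with total count scaling Sirt2 and Sirt4 turned to -0.12 and -0.30, not called. Sirt3, the main deacetylase of mitochondria (chromosome 7, 140863666 to 140882309), had 20.3, 18.9 and 17.8 CPM in cKO and 7.13, 7.27 and 8.75 CPM in cWT. It rose by 1.30 (log2, SE 0.15, adjusted p = 3.7e-07), and by 0.44 under the offsets (adjusted p = 0.0128). Sirt1, a nuclear enzyme that acts on p53 and NF-kB subunits, had 13.2, 17.4 and 11.4 CPM in cKO and 18.9, 19.7 and 20.3 CPM in cWT. It fell by 0.49 (SE 0.15, adjusted p = 0.00693), with -0.07 under the offsets.

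Sirt6, a chromatin enzyme of histone H3, had 5.45, 7.97 and 8.43 CPM in cKO and 8.41, 9.27 and 9.56 CPM in cWT, which overlap by a narrow margin. The difference of -0.31 (log2, SE 0.19) was not called (adjusted p = 0.155). It was -0.94 relative to the median of its length group, and -0.66 with the offsets (adjusted p = 0.00292). Sirt4, of mitochondria, had 4.67, 4.78 and 5.31 CPM in cKO and 5.11, 3.99 and 4.75 CPM in cWT, at 0.10 (adjusted p = 0.709). The offsets gave -0.52 (adjusted p = 0.0484). The values of Sirt4 overlap, and its counts were 48 to 70 in cKO and 78 to 96 in cWT.

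Sirt7 of the nucleolus rose by 0.57, with 126 ± 12.8 CPM in cKO and 84.8 ± 4.88 CPM in cWT, and was not called with the offsets (0.09) or with total count scaling (0.18, adjusted p = 0.106). Sirt2, a mainly cytoplasmic enzyme abundant in oligodendrocytes, had 125, 119 and 135 CPM in cKO and 97.1, 103 and 112 CPM in cWT. It was higher at 0.28 (SE 0.10, adjusted p = 0.0144) and lower with the offsets, at -0.21 (adjusted p = 0.0156), and leaving out cWT replicate 1 or 2 ended the call (adjusted p = 0.0674 and 0.0557). Of the 6 oligodendrocyte markers 4 were higher and 1 lower, none was at 0, and their sum was 291 to 429 CPM in cKO and 273 to 283 CPM in cWT. The part of those cells in the level of Sirt2 was not tested. Sirt5, the desuccinylase, rested on 43 to 59 counts in cKO and 40 to 61 in cWT. It was higher by 0.76 (log2, SE 0.28, adjusted p = 0.0213), and the call ended without cKO replicate 1 or 2 or cWT replicate 1 (adjusted p = 0.103, 0.0557 and 0.0952). Total count scaling gave 0.36, not called either (adjusted p = 0.252), and the offsets turned it to -0.26 (adjusted p = 0.434).

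Ncor1, the large corepressor that activates Hdac3 at nuclear receptor targets (chromosome 11, 62316426 to 62458541), had 42.7, 43.1 and 34.5 CPM in cKO and 148, 140 and 139 CPM in cWT. It fell by 1.83 (SE 0.11, adjusted p = 4.96e-11), 3.55-fold, and by 0.40 with the offsets (adjusted p = 0.000295). Hdac3 and Ncor1 thus stood on opposite sides, the enzyme higher and the scaffold lower, before the offsets.

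Among the readers, 5 of 6 were lower. Brd2, a BET protein of active chromatin (chromosome 17, 34112023 to 34122634), was the most abundant, at 149, 161 and 170 CPM in cKO and 249, 265 and 266 CPM in cWT. It fell by 0.70 (SE 0.09, adjusted p = 1.96e-06), was at -0.02 relative to the median of its length group, and was called higher with the offsets, at 0.22 (adjusted p = 0.00672). Brd3, its BET relative (chromosome 2, 27445579 to 27507662), had 18.01, 15.6 and 14.1 CPM in cKO and 41.0, 37.0 and 46.1 CPM in cWT, and fell by 1.38 (SE 0.13, adjusted p = 2.54e-08), with -0.47 under the offsets. The log2 ratio of Brd3 to Brd2 was -3.05, -3.37 and -3.59 in cKO and -2.60, -2.84 and -2.53 in cWT, a difference of -0.68 that was -0.69 with the offsets (exact permutation p = 0.1, adjusted 0.15).

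Brd1, a scaffold of MYST writer complexes, fell by 1.28, with 34.5 ± 2.58 CPM in cKO and 84.1 ± 3.46 CPM in cWT, and under the offsets it was at -0.40 (adjusted p = 0.000169). Brd7, a subunit of the PBAF remodelling complex, had 36.5, 34.5 and 40.1 CPM in cKO and 44.3, 44.4 and 48.3 CPM in cWT. It was lower at -0.30 (SE 0.11, adjusted p = 0.0163), and the call was lost without cKO replicate 2 or cWT replicate 3 (adjusted p = 0.0668 and 0.0844) and with the offsets (-0.08). Brd8, of the NuA4 complex, was lower at -0.38 and was not called with the offsets (0.15). Brd9, of the non-canonical BAF complex, had 35.3, 35.1 and 38.1 CPM in cKO and 34.05, 33.1 and 35.2 CPM in cWT, which overlap (log2 fold change 0.09, SE 0.11, adjusted p = 0.474). The offsets gave -0.20 (adjusted p = 0.0614).

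**Figure D4:**
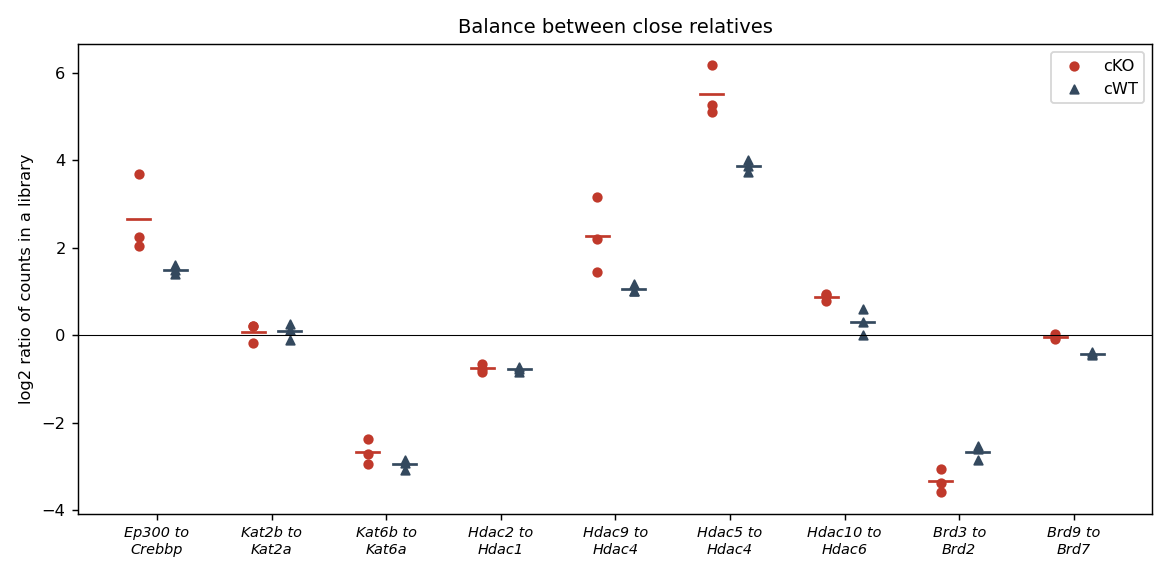
Log2 ratio of the counts of 9 pairs of related genes in each library, with cKO as red circles to the left of cWT as dark triangles and bars at the means of 3 libraries. The ratios of Kat2b to Kat2a, Kat6b to Kat6a and Hdac2 to Hdac1 overlap between genotypes, and the other 6 do not.

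Of the 9 pairs compared, 6 did not overlap between genotypes, and each of these had the smallest exact permutation p the design allows, 0.1 (adjusted 0.15). Among single tested genes 74.6% did not overlap, and the share over other pairs of genes was not computed. Hdac5 to Hdac4 had the largest difference, with a log2 ratio of 5.51 ± 0.58 in cKO and 3.87 ± 0.13 in cWT, and its difference of 1.65 was 0.83 with the offsets. Hdac10 to Hdac6 and Brd9 to Brd7 differed by 0.59 and 0.39, and with the offsets by -0.09 and -0.13. Transcript lengths are unequal in these pairs, at 2412 and 4142 bases for Hdac10 and Hdac6 and 2407 and 3625 for Brd9 and Brd7. Hdac5 and Hdac4 have 3788 and 8100 bases. The differences for Ep300 to Crebbp, Hdac9 to Hdac4 and Brd3 to Brd2 were the ones that kept at least 0.69 of log2 difference in the same direction, beside that of Hdac5 to Hdac4.

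Levels between genes were compared per kilobase of transcript. In cKO the order was led by Sirt7 at 73.1, Sirt2 at 68.5 and Hdac1 at 61.6 CPM per kilobase, and in cWT by Sirt2 at 56.5, Brd2 at 55.8 and Sirt7 at 49.1. Hdac4 was last in both, at 0.217 in cKO and 1.09 in cWT. Kat6a ranked 21 of 34 in cKO and 8 in cWT, Ep300 ranked 26 and 11, and Kat8 ranked 7 and 18, the rank in cKO first in each. Dividing by length does not remove the trend of fold change with length, so these shifts of rank carry it. The transcripts of Kat6a, Ep300 and Kat8 have 9113, 9566 and 1579 bases. In cKO 19 of the 34 genes lay above the median tested gene per kilobase, and in cWT 22.

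The partners of these genes were taken from a list of 148 further genes in 5 groups, of which 144 were tested. In all, 82 were called lower and 31 higher, with a median of -0.65, against 36.5% lower and 35.6% higher over all tested genes. With the offsets 68 were lower and 20 higher (median -0.19), where 29.0% of all genes with a length were lower and 28.2% higher. The counts of the 5 groups below are to be read beside these shares over all genes, without and with the offsets. With libraries scaled by total count alone the split was 99 lower and 20 higher, where 6742 of all 13490 tested genes were lower and 3331 higher. Their median transcript has 4028.5 bases.

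The group listed as other bromodomain and YEATS readers also holds BAF subunit genes outside those families, among them Gltscr1, Gltscr1l and Dpf2. In the group 26 of 31 were lower and 1 was higher (median -1.44), and with the offsets 20 were lower and 1 higher (median -0.51). Bicra, a BAF subunit listed as Gltscr1, fell by 3.24, with 4.15 ± 0.94 CPM in cKO and 39.8 ± 1.34 CPM in cWT. Kmt2a, a methyltransferase with a bromodomain, fell by 3.20, with 11.8 ± 1.20 CPM in cKO and 108 ± 0.902 CPM in cWT. Sp140, a reader of immune cells, was the exception at 0.47 (adjusted p = 0.000618). With the offsets Gltscr1, Kmt2a and Sp140 stood at -1.86, -1.36 and 0.13.

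Among other acetyltransferases and coactivators 10 of 12 were lower and 2 higher. The nuclear receptor coactivators Ncoa3 and Ncoa2 fell by 2.01 and 1.95, at 48.4 ± 3.43 and 22.1 ± 0.114 CPM in cKO and 194 ± 10.4 and 85.6 ± 6.27 CPM in cWT. Hat1, which acetylates new histone H4 in the cytoplasm, rose by 1.12 and Elp3, of the elongator complex, by 0.35. With the offsets Ncoa3 and Ncoa2 were at -0.71 and -1.09, Hat1 at 0.0031 and Elp3 at 0.28 (adjusted p = 0.00611), and the calls of the group were 8 lower and 1 higher.

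HDAC complex subunits and corepressors were lower in 21 of 41 cases and higher in 11, and with the offsets 21 were lower and 8 higher. Bcor, which binds BCL6, fell by 2.26, with 16.4 ± 1.74 CPM in cKO and 78.5 ± 4.84 CPM in cWT, and stood at -0.98 with the offsets. Sin3b, the scaffold of a Sin3 complex, rose by 1.30, with 195 ± 5.97 CPM in cKO and 79.0 ± 3.46 CPM in cWT, and stood at 1.98 with the offsets for its annotated transcript of 4115 bases. Sap30, another Sin3 subunit, rose by 1.21 and stood at 0.01 with the offsets.

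KAT complex subunits were mixed, 22 of 46 lower and 17 higher, the latter 37.0% and near the 35.6% of all tested genes. With the offsets 17 were lower and 9 higher. Trrap, the scaffold of SAGA and NuA4, fell by 2.48, with 20.2 ± 0.955 CPM in cKO and 113 ± 1.90 CPM in cWT, and Hcfc1, a cofactor of several writer complexes, fell by 2.43. With the offsets Trrap was at -0.66 and Hcfc1 at -0.92. The SAGA subunit gene Sgf29, listed as Ccdc101, and the NuA4 subunit gene Mrgbp rose by 1.22 and 1.21, and neither was called with the offsets. Genes of acetyl-CoA and NAD supply were called in 3 of 14 cases, all 3 lower, with 0 higher by edgeR, DESeq2 and limma-voom and 0 higher at an unadjusted edgeR p under 0.05. Leaving out cKO replicate 2 or 3 gave 2 higher. Acss1 fell by 0.96 and Acly, which makes acetyl-CoA from citrate, by 0.76, and the offsets left -0.62 and -0.12, with 2 of the 14 lower and 1 higher.

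**Figure D5:**
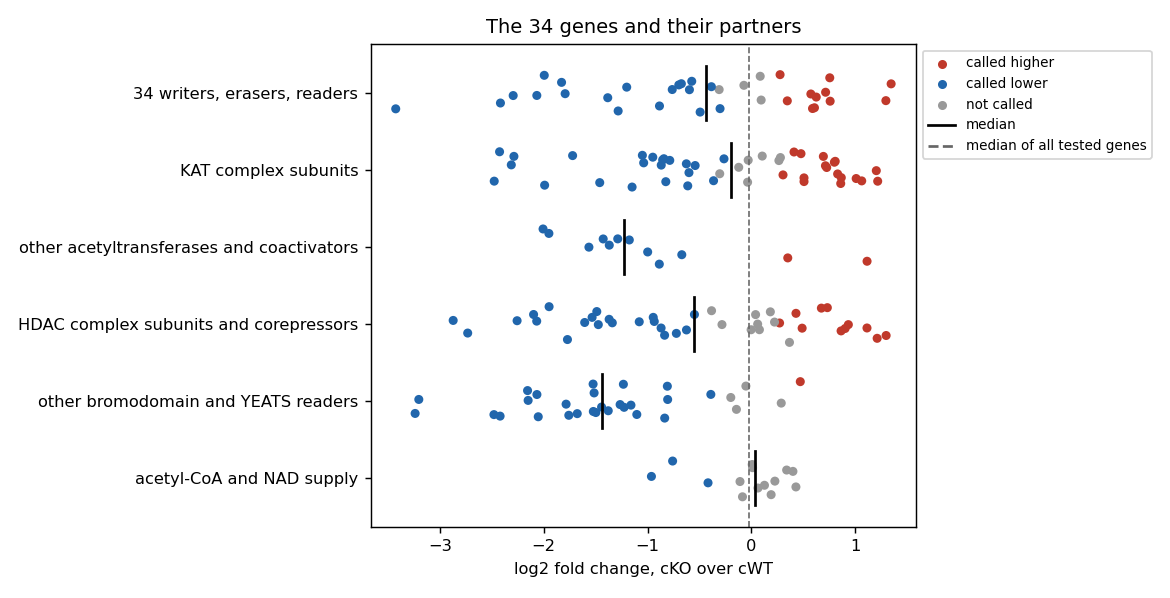
Log2 fold change (cKO over cWT) of the 34 genes and of 144 tested partners in 5 groups, with 1 point per gene coloured by its call, a black bar at each group's median and a dashed line at the median of all tested genes. Other readers and other acetyltransferases lie mostly below 0, at medians of -1.44 and -1.23, while genes of acetyl-CoA and NAD supply lie around 0, at 0.04.

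The authors' deposited table gave the same split for the 34 genes, 11 higher and 19 lower with 4 not called, where it called 29.2% of all its genes higher and 28.7% lower. The sign was the same for all 34. Its log2 fold changes differed from those of edgeR by at most 0.0135. It is a second test on the same libraries and adds no independent samples.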

How the data were processed

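RNA sequencing of 3 cKO and 3 cWT libraries was used. The authors deposited expected counts by gene symbol, without scaling of libraries. The submitters' processing notes list STAR 2.7.9a, RSEM, DESeq2 and the builds GRCm38 and mm10 without saying what each was used for. Which gene annotation was used, and whether counting used strand, was not given in the sources used here. Values that were not whole made up 5.5% to 5.85% of a column, and all were rounded. The deposited comparison table holds a base mean (a signal after scaling), a log2 fold change and its SE, a Wald score, and p-values with adjusted p-values, per the file headers.

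Genes were tested with edgeR 4.0.16 (R 4.3.3; quasi-likelihood, TMM, two-sided, genotype only), after filterByExpr with a minimum count of 10, which kept 13490 of 17459 genes. Benjamini-Hochberg adjustment ran over all tested genes. SEs came from the test statistic. Transcript lengths, GC content and 3' UTRs came from GENCODE M21 (GRCm38), principal transcripts where marked, for 13396 tested genes (99.3%), and the expressed transcript may differ. Offsets were per-library smooths of log2 CPM on length and GC content (mgcv 1.9.3). The libraries carry no stated molecular identifiers, so reads may repeat molecules. Replicates differed beyond counting noise (chi-square per degree of freedom 3.76 to 18.2), so none was merged. The test was tried on simulated counts.

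The 34 genes, the gene lists and the tests were chosen with earlier results of these data known. Values per library are given for the genes with the largest change in each class, those against their class or not called, and the pairs, with others where useful. From the further 148 genes (5 matched by synonym) the text names the 2 largest called changes in each direction per group, at an average log2 CPM of at least 2. A result that this rule selects is not reported here. Alternatives were DESeq2 1.42.0, limma-voom (limma 3.58.1), other scalings and filters, the offsets, a replicate block, and leaving out each library. Comparing the pairs under the offsets and without each library was added after seeing the data.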

Additional observations from a re-analysis of the deposited data

How the results depend on the processing

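The counts of 11 higher and 19 lower among the 34 genes were the same with DESeq2, limma-voom, DESeq2 size factors, no filter, the replicate block, and with genes of mitochondria, ribosomal proteins and haemoglobin taken out. With at least 5 CPM in 3 libraries, which drops Sirt4 and Sirt5, they were 10 and 19. Leaving out a library gave 8 to 11 higher and 18 to 19 lower. Over the 148 further genes it gave 29 to 33 higher and 79 to 82 lower.

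With library size alone 6 of the 34 genes and 20 of the further genes were higher, among them 11 KAT complex subunits, 1 other acetyltransferase and 0 other readers, and 6 genes of acetyl-CoA and NAD supply were lower. Hdac11, Sirt2, Sirt4 and Brd9 then changed sign, to -0.048, -0.12, -0.30 and -0.31, where the median of all genes was -0.42. Of all 13490 tested genes, 3331 were higher and 6742 lower under that scaling.

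With the length and GC offsets 5 of the 34 and 20 of the further genes were higher, among them 9 KAT complex subunits, 1 other acetyltransferase and 1 gene of acetyl-CoA and NAD supply. Hdac2, Sirt2, Sirt4, Sirt5 and Brd9 turned to -0.063, -0.21, -0.52, -0.26 and -0.20, and Hdac9, Brd2 and Brd8 to 0.016, 0.22 and 0.15; the cause was not tested. Offset values depend on the annotated transcript.

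The replicate numbers were not shown to pair the libraries. Deviations of same-numbered libraries correlated at 0.10, 0.03 and 0.09, and those of unlike-numbered ones at -0.10 to 0.02. The same-numbered values were the higher ones, all were small, and whether the numbers pair libraries was not tested. The replicate block gave 1 higher gene of acetyl-CoA and NAD supply, where leaving out a library gave 0 to 2, and 2 without cKO replicate 2 or 3. The replicate block with offsets gave 5 higher and 13 lower of the 34, 10 KAT complex subunits, 1 other acetyltransferase and 1 gene of acetyl-CoA and NAD supply higher, with Hdac2, Sirt2, Sirt4, Sirt5 and Brd9 at -0.064, -0.21, -0.51, -0.27 and -0.20, and Hdac9, Brd2 and Brd8 at 0.015, 0.22 and 0.14. Sirt4, called lower with the offsets, was not called there (adjusted p = 0.0673). Hdac10, not called, ranged from -0.14 to 0.022 when a library was left out, above 0 without cKO replicate 2. By CPM in place of CPM per kilobase, 20 of the 34 genes in cKO and 23 in cWT lay above the median tested gene. Depth limits Hdac4, Sirt4 and Sirt5, which rest on fewest counts in cKO.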
